A study of Mus musculus with 10 samples.

Results

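The TaqMan Rodent MicroRNA Arrays carry, beside their miRNA assays, a small set of assays for other cellular RNAs that serve as endogenous controls. The control assays examined here were MammU6, U87, Y1, snoRNA135, snoRNA202 and snoRNA429, all 6 of those named in the Ct files other than the plant assay ath-miR159a. They were chosen by their names on the array. MammU6, U87, Y1, snoRNA135 and snoRNA202 made up 5 of the 381 assays of Array A, and all 6 were among the 216 assays of Array B, which alone carried snoRNA429.

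All cards were loaded from aliquots of 1 RNA sample of proliferating C2C12 cells, an established mouse myoblast line, with no genetic change or drug treatment in any group. Array A was run with 500 ng of RNA on 4 cards without pre-amplification, from reverse transcription reaction 2 (RT2) and reaction 1 (RT1), each measured on day 2 and on day 1. Array B was run with 150 ng of RNA on 2 cards with pre-amplification of the cDNA for 12 cycles and on 2 cards without it. Because every card repeats the same RNA, the spread between cards is technical, and no difference below is one between cells or conditions of growth.

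An endogenous control is an RNA whose level is subtracted from that of every miRNA on the same card, so that differences in RNA input, reverse transcription and loading cancel. U6 is the small nuclear RNA at the catalytic centre of the spliceosome, and Y1 is a small cytoplasmic RNA bound by the Ro60 protein. Both are made by RNA polymerase III. The other controls are small nucleolar RNAs (snoRNAs) of the C/D box class, which guide 2′-O-methylation of ribosomal and spliceosomal RNAs and are as a rule processed from the introns of host genes. The controls are made by other routes than miRNAs, so how they behave in an assay built for miRNAs is usually examined before 1 of them is chosen.

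The control names were matched to RefSeq mouse genes of assembly GRCm38.p6. U87 is Snord87, 74 nt long, in a locus that overlaps the snoRNA host gene Snhg6 and Mcmdc2. The assay snoRNA135 carries a synonym of Snord65, 57 nt long and inside the long noncoding RNA gene 2410006H16Rik. Through the older names MBII-202 and MBII-429, snoRNA202 was taken as Snord68 (48 nt, inside the ribosomal protein gene Rpl13) and snoRNA429 as Snord100 (68 nt, inside the ribosomal protein gene Rps12). MammU6 and Y1 were taken as Rnu6 (107 nt) and Rny1 (111 nt), and no annotated gene overlapped either.

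The measure is the cycle threshold (Ct), the PCR cycle at which fluorescence passes a fixed threshold, so a lower Ct means more RNA and 1 cycle is close to a doubling. A difference of ΔCt is given as a fold on the assumption that each cycle doubles the product. Detectable miRNAs were those whose Ct averaged 35 or less, which held for 182 miRNAs on Array A and for 60 on Array B without pre-amplification. The plant assay ath-miR159a stayed undetermined, at the Ct of 40 given to wells that never crossed the threshold, on all 8 cards. Of the muscle miRNAs, miR-206 had a Ct of 17.382 and 17.723 with pre-amplification and of 26.170 and 25.722 without it. MiR-133b had Ct values of 28.877, 28.987, 28.786 and 28.737 and miR-133a of 30.751, 30.961, 30.384 and 30.490 on RT2 day 2, RT2 day 1, RT1 day 2 and RT1 day 1. The mouse-named assay of miR-1 was undetermined on RT2 day 2 and had Ct values of 34.968, 34.755 and 31.812 on the other cards in the same order. The rat-named assay, rno-miR-1, had a mean Ct of 31.775 in RT2 and 30.911 in RT1.

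All 5 controls of Array A were measured on every card, and their order by Ct was the same on all 4. MammU6, the reference chosen in the study, had Ct values of 19.581, 19.605, 19.770 and 19.573 on RT2 day 2, RT2 day 1, RT1 day 2 and RT1 day 1. The card RT1 day 2 was the high one and the other 3 lay within a few hundredths of a cycle. No detectable miRNA had a lower mean Ct than MammU6.

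Among the snoRNAs, snoRNA202 had Ct values of 23.976, 23.978, 23.921 and 23.785 in the same order of cards. Here RT1 day 1 was the low card and both RT2 cards were level. The values of snoRNA135 were 25.972, 25.829, 25.856 and 25.869, with RT2 day 2 the highest and the other 3 close together. U87 had values of 28.968, 28.439, 28.635 and 28.408, with both day 2 cards above both day 1 cards. Y1 had 27.977, 27.923, 27.763 and 27.806, with both RT2 cards above both RT1 cards.

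The spread was smallest for snoRNA135 and largest for U87. The mean Ct was 25.9 ± 0.0626 for snoRNA135, 23.9 ± 0.0906 for snoRNA202, 19.6 ± 0.0928 for MammU6, 27.9 ± 0.0996 for Y1 and 28.6 ± 0.257 for U87 (SD, n = 4 cards each). SnoRNA202, MammU6 and Y1 thus differed in SD by less than 0.01 cycles. Of the 182 detectable miRNAs, 12 had a smaller SD than snoRNA135, 32 than snoRNA202, 33 than MammU6, 36 than Y1 and 98 than U87, and the median SD of the miRNAs was 0.237 cycles.

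These ranks mix abundant and scarce RNAs, and scarce ones vary more from card to card. The next counts are therefore against miRNAs of like Ct. Among the 79 detectable miRNAs with a mean Ct above 25 and up to 30, where the median SD was 0.121 cycles, 8 had a smaller SD than snoRNA135, 25 than Y1 and 71 than U87. Among the 10 miRNAs above 20 and up to 25, with a median SD of 0.0767, 6 varied less than snoRNA202. MammU6, at a mean Ct under 20, had no miRNA of like level to be set against.

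**Figure D1:**
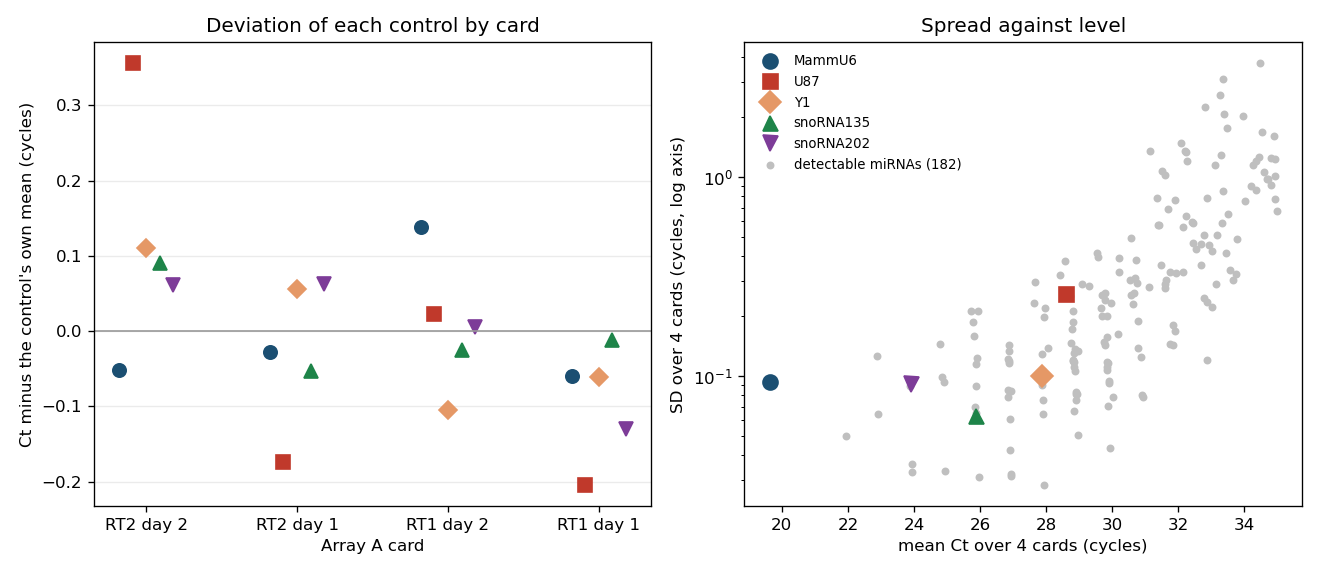
Left, the Ct of each control minus its own mean over the 4 Array A cards, in cycles, for RT2 and RT1 on day 2 and day 1. Right, the SD over the 4 cards (log axis) against the mean Ct for the 5 controls and the 182 detectable miRNAs. U87 lies farthest from 0 on 3 of the 4 cards and above most miRNAs of its own Ct, while snoRNA135 has the smallest SD of the controls, 0.0626 cycles.

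MiRNAs often taken as references themselves gave a second scale for these spreads. All 12 on a list of such miRNAs were detectable on Array A, and their median SD was 0.0852 cycles, beside 0.0928 for the 5 controls. The smallest belonged to miR-92a (0.0319) and miR-16 (0.0329), the largest to miR-423-5p (0.362) and miR-103 (0.414).

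Between reactions, no control passed the test. Each reaction was 1 reverse transcription product run on 2 days. The p-values and intervals thus measure spread between cards, not spread between repeated reactions. RT2 minus RT1 was 0.182 cycles for U87 (95% interval -0.577 to 0.941), 0.166 for Y1 (-0.211 to 0.542), 0.124 for snoRNA202 (-0.276 to 0.524), 0.038 for snoRNA135 (-0.365 to 0.441) and -0.0785 for MammU6 (-0.512 to 0.355), each with an adjusted p of 0.974 by limma over all 187 assays. Of all those assays 2 passed, or 1.07%, and 10 had an unadjusted p under 0.05, none of them a control. The methods' t-test called 0 controls as well. The intervals leave room for differences of up to 0.941 cycles in U87 and of 0.512 or more in MammU6, Y1 and snoRNA202, so equal levels in both reactions were not shown. The difference was upward on both days in U87 (0.333 on day 2 and 0.031 on day 1), Y1 (0.214 and 0.117) and snoRNA202 (0.055 and 0.193). All detectable miRNAs together moved by a mean of 0.0169 on day 2 and 0.0451 on day 1.

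Between days the change was widest in U87 and near 0 in Y1. Day 2 minus day 1 was 0.378 cycles for U87 (standard error 0.168, 95% interval -0.144 to 0.900, adjusted p = 0.815 by limma over 187 assays), which amounts to 1.30-fold less signal on day 2. It was 0.529 cycles in RT2 and 0.227 in RT1. The other controls differed by 0.0865 (MammU6), 0.067 (snoRNA202), 0.065 (snoRNA135) and 0.0055 (Y1). None of the 5 controls and none of the 187 assays passed the adjusted threshold (0%), 8 assays had an unadjusted p under 0.05, none of them a control, and the methods' t-test called 0 controls. The mean of the detectable miRNAs differed by 0.0986 cycles in RT2 and 0.127 in RT1 between the days, more than the mean difference of any control other than U87.

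A control can also be judged against its fellows, by the SD of its Ct difference to each of the others, averaged as the M value (lower is steadier). On Array A the M value was 0.128 cycles for snoRNA135, 0.130 for snoRNA202, 0.140 for Y1, 0.174 for MammU6 and 0.230 for U87. Of the 10 pairs, Y1 with snoRNA202 kept the steadiest distance (SD 0.0802 cycles) and Y1 with snoRNA135 came next (0.0830). The loosest pair was MammU6 with U87 (0.272).

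The Ct values of Array A were not spread evenly within a cycle, in the controls or in the miRNAs. All 4 values of snoRNA135, all 4 of snoRNA202 and all 4 of Y1 lay at 0.75 or more past a whole cycle, against 1 of 4 for MammU6 and 1 of 4 for U87. Over the card set, 70% of the 20 control values and 56.1% of the 765 miRNA values at a Ct of 35 or less did so. On Array B it was 29.2% of 24 control values and 26.7% of 356 miRNA values. The part of this clustering in the SDs of the controls was not tested.

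Each control had miRNAs that tracked it closely over the 4 cards. The smallest SD of the Ct difference to snoRNA135 was 0.00712 cycles, for miR-30a, and the next 0.0200, for miR-191. The closest to snoRNA202 were miR-335-5p (0.0154) and miR-29a (0.0167), and to Y1 miR-9 (0.0238) and miR-28 (0.0318). MammU6 was tracked less closely, by miR-29c (0.0540) and miR-145 (0.0603), and U87 least, by miR-18a (0.0676) and miR-224 (0.0849). These are the best of 182 miRNAs for each control. The mean distance from snoRNA135, snoRNA202 and Y1 to their 6 partners was within 0.039 cycles of a whole number in every case, as with 2.96 cycles to miR-30a, 7.003 to miR-335-5p and 2.004 between Y1 and miR-28.

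As the reference on Array A, each control moved all miRNAs of a card by the same amount. Subtraction of U87 gave the miRNAs a median SD of 0.290 cycles over the 4 cards, above the 0.237 of the raw Ct values, and MammU6 0.249. The median SD was 0.227 with snoRNA135, 0.227 with Y1 and 0.229 with snoRNA202, and 0.208 with the mean of all 5 controls. An SD of 0.2 cycles or less was reached by 28 of 182 miRNAs with U87, 73 with MammU6, 81 with Y1, 82 with snoRNA202 and 84 with snoRNA135, and by 81 on raw Ct. Against the raw values, subtraction widened the SD of 133 of the 182 miRNAs with U87, 114 with MammU6, 105 with Y1, 94 with snoRNA202 and 84 with snoRNA135.

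The reference changed the mean RT2 minus RT1 difference of the 182 miRNAs in sign but not by much in size. It was 0.109 cycles with MammU6, -0.00701 with snoRNA135, -0.0930 with snoRNA202, -0.135 with Y1 and -0.151 with U87, a span of 0.261 cycles or 1.20-fold. Limma called 4 of 182 miRNAs (2.20%) with MammU6, 4 (2.20%) with U87, and 3 (1.65%) with each of Y1, snoRNA135 and snoRNA202, all from the same 4 cards. MiR-465a-3p (5.41 cycles higher in RT2 with MammU6), miR-741 (-3.39) and miR-197 (-2.03) were called with all 5 references, and miR-708 (4.46) with MammU6 and U87 only. Each of these had a mean raw Ct above the detection limit of 35 in 1 reaction. It was 36.0 for miR-465a-3p and 35.4 for miR-708 in RT2, and 35.7 for miR-741 and 36.0 for miR-197 in RT1. With the day as a replicate block 1, 2, 1, 0 and 0 miRNAs were called with MammU6, U87, Y1, snoRNA135 and snoRNA202, so that none was called with all 5, and none was called with any of them at a Ct limit of 30. Without RT1 day 2, 11 miRNAs were called with U87 and 0 with each of the other 4. Without RT1 day 1 it was 9 with U87, 4 with snoRNA135 and 0 with MammU6, Y1 and snoRNA202. Without RT2 day 1, 1 was called with MammU6 and 2 with each of the others, and without RT2 day 2, 1 with MammU6, 4 with U87 and 2 with each of the others.

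Between days the span was 0.373 cycles, or 1.29-fold. The mean day 2 minus day 1 difference was 0.107 cycles with Y1, 0.0478 with snoRNA135, 0.0458 with snoRNA202, 0.0263 with MammU6 and -0.265 with U87, under which 145 of 182 miRNAs had a lower ΔCt on day 2. Limma called no miRNA with any of the 5 references (0% each), with 8 unadjusted p-values under 0.05 for MammU6, snoRNA135 and snoRNA202, 7 for U87 and 6 for Y1. The methods' t-test at its threshold called 1 miRNA with MammU6 and 0 with the other 4. Without RT2 day 1, limma called 1 miRNA with each of MammU6, U87 and Y1.

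Over both conditions together, though within neither, the controls covered a wider range of Ct on Array B than on Array A. With pre-amplification MammU6 had Ct values of 13.803 and 14.012, against 21.714 and 21.673 without it. The snoRNA202 values were 15.004 and 15.735 with pre-amplification, against 23.752 and 23.622 without. For snoRNA429 they were 17.026 and 17.133 with, against 25.171 and 24.888 without. In each of the 3 the second pre-amplified card read later than the first, and by most in snoRNA202.

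The other 3 were also later on the second pre-amplified card. SnoRNA135 had Ct values of 18.274 and 18.816 with pre-amplification, against 26.815 and 26.658 without. U87 had 21.568 and 21.672 with, against 29.917 and 29.768 without. The values of Y1 were 21.588 and 22.004 with, against 30.408 and 30.280 without. The groups with and without pre-amplification did not overlap in any control, and the Ct of all 66 assays in the fit, the 60 miRNAs included, was lower with pre-amplification.

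**Figure D2:**
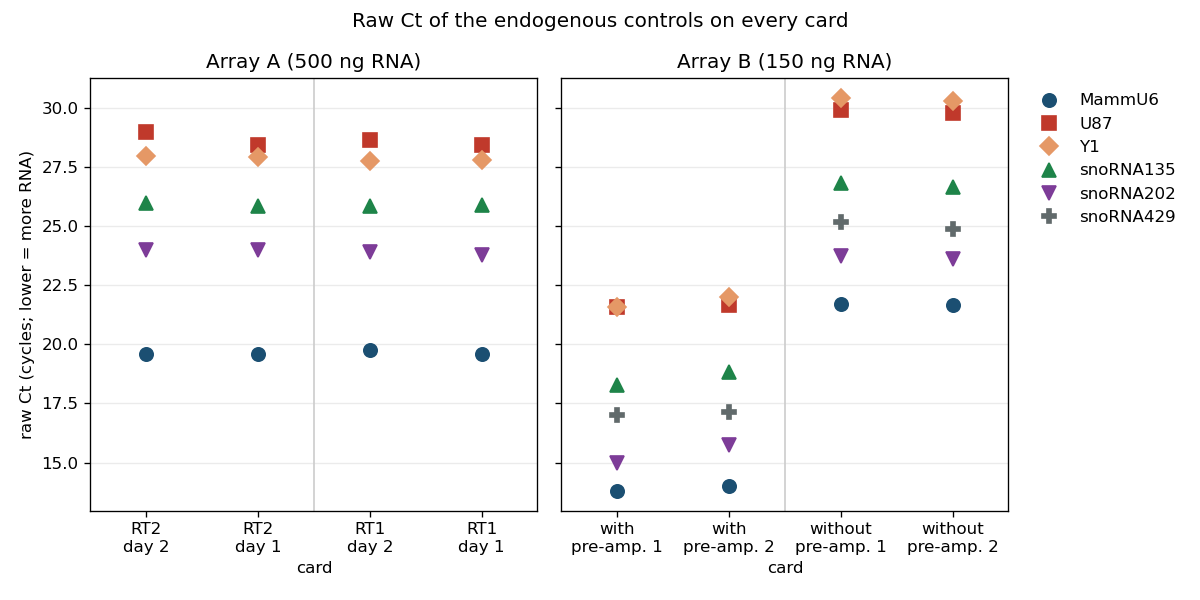
Raw Ct of each control, in cycles, on the 4 Array A cards (left) and the 4 Array B cards (right), 1 point per card. The pre-amplified cards of Array B differ from those without pre-amplification by -7.79 (MammU6) to -8.55 cycles (Y1), and Y1 and U87 stand in opposite order on Array A and on the Array B cards without pre-amplification.

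Between the 2 pre-amplified cards the controls moved unequally. Card 2 minus card 1 was 0.731 cycles for snoRNA202, 0.542 for snoRNA135, 0.416 for Y1, 0.209 for MammU6, 0.107 for snoRNA429 and 0.104 for U87, beside a mean of 0.401 for the detectable miRNAs. Without pre-amplification the same difference ran from -0.283 for snoRNA429 to -0.041 for MammU6, beside -0.219 for the miRNAs. With 2 cards a condition, these SDs rest on 1 difference each.

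The net shift with pre-amplification was close among the controls. The paper states that pre-amplified cDNA was diluted relative to the other samples, so the raw shift is not the yield of the cycles alone. Every control shifted further than the decrement the paper calculates for full doubling after that dilution. So did 43 of the 60 miRNAs and the mean of the miRNAs, so this was not particular to the controls. The shift of raw Ct (with minus without) was -7.79 cycles for MammU6, -7.95 for snoRNA429, -8.19 for snoRNA135, -8.22 for U87, -8.32 for snoRNA202 and -8.55 for Y1, a span of 0.762 cycles or 1.70-fold. The 60 miRNAs detectable without pre-amplification had a mean shift of -7.64 cycles (SD 1.28) and a median of -7.77, from -10.02 to -2.93. Counted in single assays, 30 of the 60 miRNAs shifted further than MammU6 and 10 further than Y1. In all 6 controls the shift was larger between cards 1 (-7.91 for MammU6 to -8.82 for Y1) than between cards 2 (-7.66 for MammU6 to -8.28 for Y1). This was not particular to the controls. The mean Ct of the 60 miRNAs was 23.3 with against 31.3 without pre-amplification on cards 1, and 23.7 against 31.1 on cards 2.

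**Figure D3:**
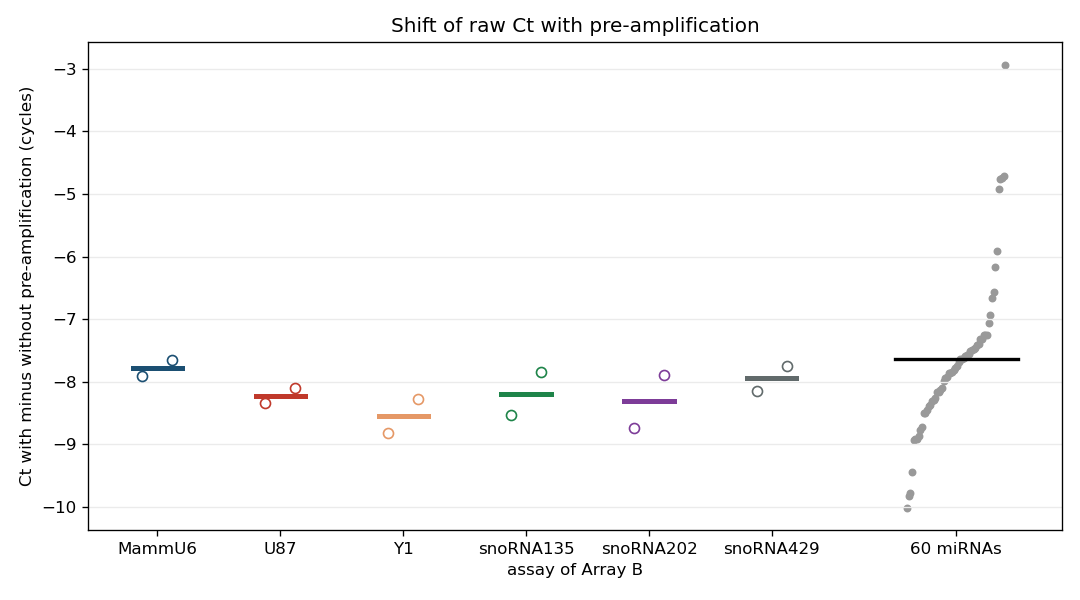
Raw Ct with minus without pre-amplification on Array B, in cycles. Open circles are the pairs of cards 1 and 2 for each control and bars their mean, grey points are the 60 miRNAs in order of their shift, and the black bar is their mean, -7.64. MammU6 lies nearest to the mean of the miRNAs and Y1 farthest from it.

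On the scale of the study, Ct relative to MammU6, 1 of the 5 other controls passed the test. Y1 had a ΔCt of 7.89 ± 0.146 with pre-amplification and 8.65 ± 0.0615 without (SD, n = 2 cards each). It was thus lower by 0.762 cycles with pre-amplification (difference -0.762, standard error 0.189, 95% interval -1.25 to -0.273, adjusted p = 0.0426 by limma over 65 assays). As all cards hold the same RNA, this is 1.70-fold more signal relative to MammU6, not more Y1 RNA. Of all 65 assays 24.6% were called, and 10.8% in the direction of Y1. The call was lost without pre-amplified card 1 (adjusted p = 0.286), without pre-amplified card 2 (0.148) and without card 1 of those not pre-amplified (0.0855), and with the shared reaction as a block (0.130), where 0 of 65 assays passed and 19 had an unadjusted p under 0.05.

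The snoRNAs lay on the same side and did not pass. The difference in ΔCt was -0.532 cycles for snoRNA202 (95% interval -1.16 to 0.0986, adjusted p = 0.184), -0.437 for U87 (-0.906 to 0.0329, 0.150), -0.406 for snoRNA135 (-0.944 to 0.133, 0.199) and -0.164 for snoRNA429 (-0.666 to 0.338, 0.557). All 5 share the MammU6 values of the same 4 cards, so their common sign is not 5 separate observations. The 2 against 2 exact permutation test cannot go below a two-sided p of 0.333 and was not used.

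Set against the mean of the 60 miRNAs on each card, MammU6 has a value of its own, and its difference was the smallest of the 6. The difference was -0.144 cycles for MammU6 (95% interval -0.563 to 0.275, adjusted p = 0.484) and -0.308 for snoRNA429 (-0.755 to 0.138, 0.202). Y1 was lower by 0.906 cycles with pre-amplification (difference -0.906, -1.24 to -0.574, adjusted p = 0.0115), as were snoRNA202 (-0.676, -1.15 to -0.198, 0.0490) and snoRNA135 (-0.5498, -0.906 to -0.194, 0.0415), while U87 (-0.581, -1.03 to -0.131, 0.0586) did not pass after adjustment by limma over 66 assays. The 3 controls called stand beside 37.9% of all 66 assays called, 22.7% in the downward direction. With the median of the card in place of its mean no control was called (adjusted p = 0.0527 for Y1) and the difference of MammU6 became 0.0195. With the reaction as a block Y1 alone was called (adjusted p = 0.0376). Without pre-amplified card 1 or without pre-amplified card 2 no control was called, and Y1 then had adjusted p-values of 0.113 and 0.107. Without card 1 of those not pre-amplified snoRNA202 was lost (0.0602), and without card 2 of those U87 was added (0.0349).

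Over all 4 Array B cards, the M values were 0.201 cycles for snoRNA135, 0.219 for U87, 0.2503 for snoRNA429, 0.253 for snoRNA202, 0.289 for Y1 and 0.3004 for MammU6. SnoRNA135 with snoRNA202 was the steadiest of 15 pairs (SD 0.107 cycles) and MammU6 with Y1 the loosest (0.449). These values mix both conditions. Within the pre-amplified pair MammU6 and Y1 had the lowest M value (0.179 each) and snoRNA202 the highest (0.322), and within the pair without pre-amplification snoRNA202 and U87 the lowest (0.0410 each) and snoRNA429 the highest (0.115).

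The number of miRNAs called with pre-amplification differed with the reference. Against Y1, limma called 33 of 60 miRNAs (55%), 31 of them higher and 2 lower in ΔCt with pre-amplification. U87 gave 20 calls (33.3%), 16 higher and 4 lower, snoRNA202 18 (30%), 14 and 4, and snoRNA135 17 (28.3%), 15 and 2. MammU6 gave 15 (25%), 9 higher and 6 lower, and snoRNA429 13 (21.7%), 9 and 4. The mean of the 5 controls other than MammU6 gave 26 (43.3%), 23 and 3. All of these counts come from the same 4 cards, and the ΔCt differences under any 2 references differ by 1 constant and in their error. The error was not estimated alike. With snoRNA202 and snoRNA429 limma pooled it fully, giving every miRNA a standard error of 0.424 and 0.416 cycles on 120 degrees of freedom, and with U87 nearly so (0.340 to 0.423, on 71.2). With Y1 it ran from 0.103 to 1.13 cycles on 3.55 degrees of freedom, and with MammU6 from 0.175 to 1.03 on 4.68. The counts therefore mix the level of the control with this pooling. At its own threshold the methods' t-test, which pools nothing, called 11 miRNAs with Y1, 6 with snoRNA135, 3 with MammU6, 2 with snoRNA429, 1 with U87 and 1 with snoRNA202.

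The constant was the difference between the shifts of the controls. The mean ΔCt difference of the 60 miRNAs was 0.144 cycles with MammU6, 0.308 with snoRNA429, 0.5498 with snoRNA135, 0.581 with U87, 0.676 with snoRNA202 and 0.906 with Y1. With MammU6 as the reference, 30 of the 60 differences were positive and 30 negative, and with Y1 50 and 10. Within 1.5 cycles, the limit for uniform pre-amplification used in the study, were 50 miRNAs with Y1 and 50 with snoRNA429, 49 with MammU6 and 49 with snoRNA202, and 48 with U87 and 48 with snoRNA135.

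Leaving out 1 card moved the count by over 1.5 times with every reference. With Y1, 48 miRNAs were called without card 1 of those not pre-amplified, 47 without card 2 of those, 20 without pre-amplified card 2 and 17 without pre-amplified card 1. In the same order the counts were 19, 32, 8 and 9 with MammU6, 16, 31, 11 and 13 with U87, 26, 43, 13 and 11 with snoRNA135, 22, 31, 15 and 11 with snoRNA202, 17, 23, 8 and 10 with snoRNA429 and 40, 53, 9 and 9 with the mean of the other 5. Y1 gave the highest count of any single control in each of the 4 cases. With the shared reaction as a block, the calls were 25 with Y1, 18 with snoRNA202, 15 with snoRNA135, 13 with snoRNA429, 7 with U87 and 4 with MammU6, and 14 with the mean of the other 5.

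**Figure D4:**
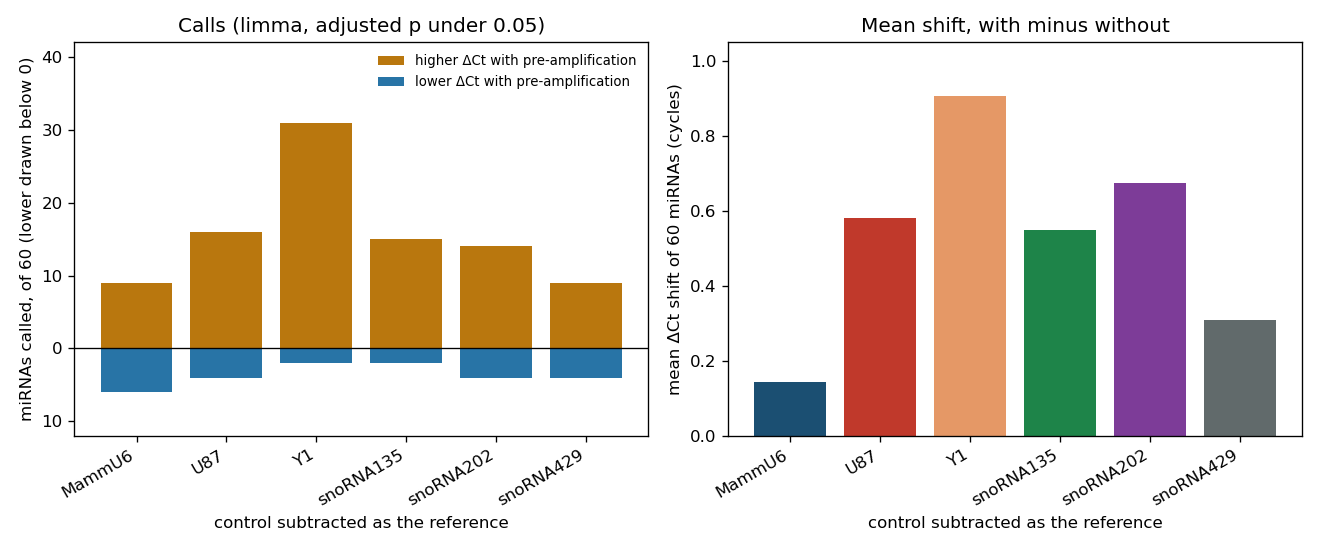
Left, the number of the 60 miRNAs called by limma with each control as the reference, those with a higher ΔCt with pre-amplification above 0 and those with a lower one below it. Right, the mean ΔCt difference of the 60 miRNAs, with minus without pre-amplification, in cycles. Y1 gives 31 higher and 2 lower calls and a mean of 0.906, MammU6 9 and 6 and a mean of 0.144.

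Of the 60 miRNAs, 41 were called with at least 1 of the 6 controls and 10 with all 6, and none was called in both directions. This holds for the limma fit without a block. With the shared reaction as a block MammU6 gave 4 calls, so at most 4 could be called with all 6. The methods' t-test gave 1 call with U87 and 1 with snoRNA202, so at most 1 could be. For 20 miRNAs the sign of the ΔCt difference depended on the control. The 10 called with every control were 8 higher ones, miR-378, miR-378*, miR-466d-3p, miR-678, miR-692, miR-704, rno-miR-20b-5p and rno-miR-463, and 2 lower ones, the minor strands miR-15b* and miR-106b*. Largest in size with MammU6 and with a sequence at hand were miR-692 (2.87 cycles), miR-106b* (-2.23), miR-15b* (-2.04) and miR-704 (1.88), which with Y1 became 3.63, -1.47, -1.28 and 2.64. The mean raw Ct without pre-amplification was 34.9 for miR-704, 34.5 for rno-miR-463 and 34.4 for miR-692, close to the detection limit. It was 33.3 for rno-miR-20b-5p, from 25.3 to 31.3 for the other higher ones, 33.9 for miR-106b* and 32.6 for miR-15b*. The miRNAs were admitted by their Ct without pre-amplification alone. Whether that choice favours a higher ΔCt with pre-amplification near the limit was not tested.

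The mature sequences of those whose call did not depend on the control are printed to show which RNAs these are, with the seed (bases 2 to 8) in capitals. They were copied from the probe list of the microarray of the same series and matched to RefSeq miRNAs of GRCm38.p6, and 9 of 14 miRNAs sought for this and the next set had 1.
miR-106b*: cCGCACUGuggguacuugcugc
miR-15b*: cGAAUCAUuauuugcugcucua
miR-678: gUCUCGGUgcaaggacuggagg
miR-692: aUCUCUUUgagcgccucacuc
miR-704: aGACAUGUgcucugcuccuag

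No 2 of these share a seed. MiR-106b* lies on chr5:138165746-138165767 (minus strand), miR-15b* on chr3:69009813-69009834 (plus strand), miR-678 on chr10:76207333-76207354 (minus strand) and miR-704 on chr6:47803590-47803610 (minus strand), while the sequence of miR-692 was annotated at 3 places, on chromosomes 4, 13 and 17.

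Other calls belonged to 1 control only, 20 in all. MammU6 alone gave 4, all lower with pre-amplification, namely miR-28* (-1.14 cycles), miR-760 (-1.13), miR-322* (-1.08) and miR-700 (-0.935). In the same order they differed by -0.975, -0.964, -0.915 and -0.771 cycles with snoRNA429 and by -0.377, -0.366, -0.317 and -0.173 with Y1, and were called with neither. Relative to the mean of the card, a reference that is no control, limma called all 4, with differences of -1.28 for miR-28*, -1.27 for miR-760, -1.22 for miR-322* and -1.08 for miR-700 (adjusted p = 0.0249, 0.0202, 0.0141 and 0.00894). With the mean of the 5 controls other than MammU6, miR-700 was called as well (-0.475 cycles, adjusted p = 0.0407 by limma). Y1 alone gave 15, all higher, among them miR-709 (0.685 cycles with Y1 and -0.077 with MammU6) and miR-720 (1.07 and 0.310), 2 names picked after their values were seen. U87 alone gave 1, miR-27b* (0.898 cycles, standard error 0.349, adjusted p = 0.0366), whose difference was larger with Y1 (1.22 cycles, standard error 0.351, adjusted p = 0.0532) and snoRNA202 (0.993, 0.424, 0.0627), where it missed the threshold on other degrees of freedom. The sequences of the 4 called with MammU6 as the only control follow, seeds again in capitals.
miR-28*: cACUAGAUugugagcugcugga
miR-322*: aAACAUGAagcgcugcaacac
miR-700: cACGCGGGaaccgaguccacc
miR-760: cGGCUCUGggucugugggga

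The GC content of these 4 was 50% for miR-28*, 47.6% for miR-322*, 71.4% for miR-700 and 70% for miR-760, against 63.6% for miR-106b*, 36.4% for miR-15b*, 63.6% for miR-678 and 52.4% for miR-692 and miR-704. The ranges overlap, and no seed is shared between the sets.

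For each control, the miRNA nearest in mean shift with pre-amplification was found. MiR-805 shifted by 0.001 cycles more than MammU6, miR-877* differed from snoRNA429 by 0.001, miR-193* from snoRNA202 by 0.0085 and miR-706 from snoRNA135 by 0.027. The nearest to U87 was rno-miR-664 (0.035 cycles further down) and to Y1 miR-22, at 0.052. Each is the nearest of 60, and the 2 pairs of cards could still differ. MiR-706 shifted by -9.01 cycles between cards 1 and -7.32 between cards 2, beside -8.54 and -7.84 for snoRNA135.

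Within each condition of Array B, the control also set the spread of the miRNAs. With pre-amplification, the median SD of ΔCt over 109 miRNAs was 0.0856 cycles with Y1, 0.142 with snoRNA135, 0.187 with MammU6, 0.252 with snoRNA202, 0.253 with snoRNA429 and 0.255 with U87, against 0.313 on raw Ct. Without it, over 60 miRNAs, it was 0.189 with MammU6, 0.204 with Y1, 0.204 with snoRNA202, 0.206 with snoRNA135, 0.211 with U87 and 0.257 with snoRNA429, against 0.195 on raw Ct. Of the single controls, Y1 gave both the largest number of calls between conditions and the smallest spread within the pre-amplified pair. These are not separate results, as spread within the pair is part of the error of the test. The spread with each control rests on 1 card difference, so the 109 miRNAs are not replicates. That difference was 0.416 cycles for Y1, beside a mean of 0.401 for the detectable miRNAs. The mean of all controls gave a median SD of 0.105 cycles.

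The 5 controls shared by both arrays can be set side by side, with different amounts of RNA, different primer pools and different cards, so that no test was made. Array B received 150 ng and Array A 500 ng, a ratio of 3.33 that corresponds to 1.74 cycles. Array B without pre-amplification minus Array A was 2.48 cycles for Y1, 2.06 for MammU6, 1.23 for U87, 0.855 for snoRNA135 and -0.228 for snoRNA202, and the values of the arrays did not overlap in any of them. SnoRNA202 was read earlier on Array B despite the smaller input, at 23.7 ± 0.0919 (SD, n = 2) against 23.9 ± 0.0906 on Array A (SD, n = 4).

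The controls therefore did not keep their distances. ΔCt to MammU6 was 1.99 on Array B and 4.28 on Array A for snoRNA202, 5.04 and 6.25 for snoRNA135, 8.15 and 8.98 for U87 and 8.65 and 8.24 for Y1, without overlap. On Array B U87 came before Y1, with 29.8 against 30.3, and on Array A Y1 came before U87, with 27.9 against 28.6. Differences in RNA input and in the array cannot be told apart here.

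**Figure D5:**
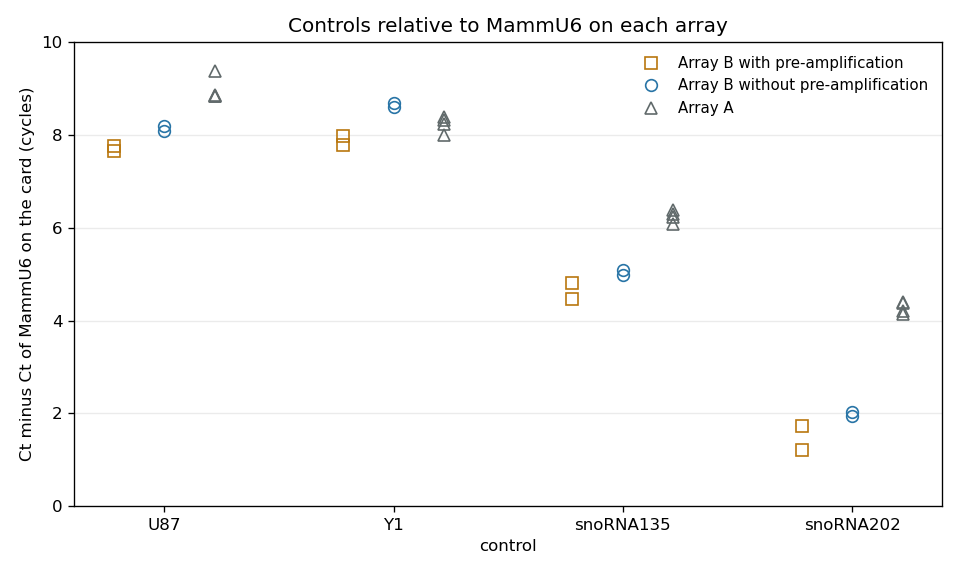
Ct of U87, Y1, snoRNA135 and snoRNA202 relative to that of MammU6, in cycles, 1 point per card, for Array B with pre-amplification, Array B without it and Array A. The points of Array B without pre-amplification and of Array A do not overlap in any of the 4, and the gap is widest in snoRNA202 (1.99 against 4.28).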

How the data were processed

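Raw Ct values of every assay were deposited by the authors (automatic baseline, a common threshold, 40 for undetermined wells) as were ΔCt values relative to MammU6. ΔCt was recomputed here. Microarray probe sequences were read, but no microarray intensity was used. Assays with a mean Ct of 35 or less entered limma 3.58.1 in R 4.3.3 (lmFit, eBayes), with Benjamini-Hochberg adjustment over all assays at 0.05. The raw Ct of Array A and, for Array B, Ct minus MammU6 and Ct minus the mean of the detectable miRNAs were fitted, then ΔCt against each control. The M value is the mean SD of differences between controls. Cards are paired by the labelled day or reaction, on Array B by the reaction shown in the study's design. Deviations of paired cards correlated at 0.0257 (reactions), 0.325 (days) and -0.0123 (Array B). The alternatives were other Ct limits, a replicate block, the methods' t-test, other references and each card left out. Depth does not apply to Ct, and the number of cards limits the precision. The fits were tested on simulated data. The rule named all controls, the 2 nearest miRNAs to each, extremes of the listed reference miRNAs and miRNAs whose call depended on the reference. The members and lists were chosen with earlier results of these data known. Sequences of the control RNAs are not shown.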

Additional observations from a re-analysis of the deposited data

Results flagged for a closer look

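One control on Array A had a card far from the others. The gap between MammU6 on RT1 day 2 (Ct 19.770) and the nearest other card was 0.838 of its whole range over 4 cards, above the critical value for 4 values. It was the only 1 of 5 controls so marked, and chance marks about 1 in 20 such groups.

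In 6 of 10 comparisons of the reactions on each day or of the days in each reaction, a control moved in opposite directions. Scatter between cards alone would give opposite signs about as often as like ones, and the count is near that share. Both comparisons of a control use the same cards, so the 10 are not separate. Each effect is a single difference between cards, and whether the effects differ was not tested. RT2 minus RT1 was -0.189 cycles on day 2 and 0.032 on day 1 for MammU6, and 0.116 and -0.040 for snoRNA135. Day 2 minus day 1 was -0.024 cycles in RT2 and 0.197 in RT1 for MammU6, 0.054 and -0.043 for Y1, 0.143 and -0.013 for snoRNA135, and -0.002 and 0.136 for snoRNA202. Both effects of U87 kept their sign.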

How the results depend on the processing

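Of 637 alternative values, 434 kept their direction and their side of the threshold and 203 did not. Calls of controls between reactions and days stayed at 0 of 5 in every alternative run. Y1 has no value on Array B at a Ct limit of 30, as its mean without pre-amplification is above it.

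Relative to the mean of the card, the day 2 minus day 1 difference changed sign for MammU6 (-0.0263), Y1 (-0.107), snoRNA135 (-0.0478) and snoRNA202 (-0.0458), and relative to MammU6 for Y1 (-0.081), snoRNA135 (-0.0215) and snoRNA202 (-0.0195). With 1 card left out it ran from -0.008 to 0.181 for MammU6, -0.102 to 0.113 for Y1 and -0.0295 to 0.164 for snoRNA202, and RT2 minus RT1 from -0.177 to 0.020 for MammU6, -0.0825 to 0.447 for U87 and -0.0335 to 0.110 for snoRNA135. These sizes lie within the spread between cards.

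With pre-amplification and MammU6 subtracted, 0 controls were called with a Ct limit of 38, the replicate block, the mean of the other controls as the reference, the methods' t-test before and after adjustment, or ΔCt as deposited, and 0 to 1 with 1 card left out. Against the mean of the other controls, snoRNA135 (0.0544), U87 (0.0234) and snoRNA429 (0.296) turned positive, by construction of that reference. With the mean of the card, 1 control was called at a Ct limit of 38, 1 with the replicate block, 0 with the median of the card in place of the mean (where MammU6 turned to 0.0195), 0 with the methods' t-test before or after adjustment, and 0 to 4 with 1 card left out.

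Counts of miRNAs called with pre-amplification, in the order MammU6, U87, Y1, snoRNA135, snoRNA202, snoRNA429 and the mean of the others, were 5, 8, 14, 8, 8, 3 and 12 at a Ct limit of 30, where fewer miRNAs were tested, and 3, 1, 11, 6, 1, 2 and 9 with the methods' t-test (2, 0, 10, 0, 0, 0 and 6 after adjustment). At a limit of 38 they were 11 for U87, 11 for snoRNA202 and 15 for the mean of the others, and with the replicate block 4 for MammU6, 7 for U87 and 14 for the mean of the others. With 1 card left out they ran from 8 to 32, 11 to 31, 17 to 48, 11 to 43, 11 to 31, 8 to 23 and 9 to 53.

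Between reactions, the calls with MammU6, U87, Y1, snoRNA135 and snoRNA202 were 0 each at a limit of 30, 6, 6 and 5 at 38 with Y1, snoRNA135 and snoRNA202, and 1, 2, 1, 0 and 0 with the replicate block. The methods' t-test gave 2, 2, 1 and 0 with MammU6, U87, Y1 and snoRNA202, and 0 each after adjustment. With 1 card left out they ran from 0 to 1, 2 to 11, 0 to 2, 0 to 4 and 0 to 2. Between days, 1 miRNA was called with U87 at a limit of 30 and 1 with MammU6 by the methods' t-test, and 0 to 1 with MammU6, U87 or Y1 with 1 card left out.

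The median SD on Array A, for raw Ct, MammU6, U87, Y1, snoRNA135 and snoRNA202, was 0.118, 0.139, 0.232, 0.128, 0.113 and 0.116 at a limit of 30 and 0.310, 0.341, 0.360, 0.317, 0.303 and 0.304 at 38. With 1 card left out it ran from 0.209 to 0.235, 0.213 to 0.245, 0.231 to 0.306, 0.191 to 0.226, 0.202 to 0.230 and 0.201 to 0.233. The cause of these changes was not tested. The number of cards limits every value here.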

Other observations

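Of the ΔCt values as deposited, 0 of 1520 on Array A and 2 of 860 on Array B differed from the raw Ct minus MammU6 by more than 0.0015 cycles. One was a control. U87 on pre-amplified card 1 was deposited at 4.542, where its raw Ct of 21.568 minus MammU6 gives 7.765, and the amount subtracted was 17.026, the Ct of snoRNA429 on that card. The other was miR-30a* on the same card, at 5.866 in place of 6.133, and no assay of the card had the Ct of 14.070 that had been subtracted. With the deposited values, an alternative chosen after seeing them, the difference of U87 with pre-amplification became -2.05 cycles (standard error 1.04, adjusted p = 0.213 by limma), and the adjusted p of Y1 became 0.05004, just past the threshold. The values in the report were recomputed from raw Ct and do not contain this.

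The 10 nearest miRNA partners of the 5 Array A controls lay at a median of 0.0315 cycles from a whole-cycle distance, from 0.00325 to 0.403. The 4 partners of MammU6 and U87 were the farthest from a whole cycle, from 0.266 to 0.403.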
